A study of Rattus norvegicus with 9 samples.

Results

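The PPAR-alpha and fatty acid oxidation genes are a list of 48 genes that covers the receptor PPAR-alpha (Ppara), its partners, and the enzymes and carriers that take fatty acids through peroxisomes, mitochondria and the endoplasmic reticulum of the liver cell. The members were listed by name, and the list was made with earlier results of these data known. For each gene, the probe set that carries its symbol alone and has the highest mean log2 signal over all arrays was taken. Of the 48 listed genes, 47 had such a probe set, among 14217 genes on the array. Acaa1a, which encodes a peroxisomal thiolase, shares its probe set with Acaa1b and was left out of the counts. Abcd2 and Acot1 lay in the lower 40% of probe sets by signal, which the test did not use, so that 45 of the 48 genes were tested among 10403 genes.

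RNA was extracted from the livers of 9 male Goto-Kakizaki (GK) rats, a strain that develops diabetes on its own, and each was hybridized to an Affymetrix rat expression array of its own. CUMS 1–3 and CUMS 4–6 went through 8 weeks of chronic unpredictable mild stress (CUMS) and were housed alone, and their labels give the symptom as major depression (CUMS 1–3) or mild depression (CUMS 4–6). Control 1–3 were not stressed and carry the label undepression. All rats, controls included, received the glucose-lowering drug repaglinide by gavage before the liver was taken. How the major and mild labels were assigned is not given in the sources used here, and no rat without diabetes is among the samples. Levels are MAS 5.0 signals on a linear scale, which the authors scaled so that arrays could be compared, and values of single rats are given in the order of the rat numbers. A difference is that of the group means of log2 signals, the stressed group minus the controls, and a level given in times of another is this difference put back on the linear scale.

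PPAR-alpha is a nuclear receptor that senses fatty acids and, paired with RXR, switches on genes for their oxidation, above all in the fasting liver. Peroxisomes shorten very long and branched chains, mitochondria oxidise most other fatty acids and pass the product to ketone bodies, and CYP4A enzymes of the endoplasmic reticulum hydroxylate the far end of the chain. In rats and mice, drugs that activate the receptor raise the peroxisomal and CYP4A genes strongly and enlarge the peroxisome population.

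The receptor pair binds direct repeats of AGGTCA with 1 base between them, and promoters were searched for AGGTCANAGGTCA on both strands. RefSeq promoter sequences on the GRCr8 assembly, from 250 bases before to 50 bases after each gene's start, were at hand for 43 of the 48 genes, and not for Acadl, Ech1, Cyp4a1, Decr1 and Acaa2. With at most 1 of the 12 fixed letters differing, 4 of 43 members (9.3%) held the motif, as did 0.439% of all 33469 promoters. With at most 2 letters differing the shares were 9 of 43 members (20.9%) and 3.77% of all promoters, and with no letter differing 0 members and 0.0538% of all promoters. With at most 3 letters differing they were 17 of 43 members (39.5%) and 24.9% of all promoters. A member was counted once if any promoter of the gene matched, whereas the share of all promoters counted each promoter, so the units differ. The 4 closest matches and those of 4 members described below are shown 5′ to 3′ on the strand of the gene, with the match in capitals.
Acadvl: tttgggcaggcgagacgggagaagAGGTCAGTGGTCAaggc
Acot12: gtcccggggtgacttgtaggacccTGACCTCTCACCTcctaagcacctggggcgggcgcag
Acot8: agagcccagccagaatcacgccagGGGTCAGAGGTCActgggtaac
Fabp1: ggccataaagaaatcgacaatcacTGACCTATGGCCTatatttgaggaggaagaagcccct
Creb3l3: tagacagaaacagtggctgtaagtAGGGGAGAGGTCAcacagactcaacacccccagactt
Crat: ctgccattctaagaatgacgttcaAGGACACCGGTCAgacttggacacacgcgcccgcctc
Etfa: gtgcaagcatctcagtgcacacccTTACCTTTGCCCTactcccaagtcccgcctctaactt
Slc25a20: cttaatgtAGGTGAAAGGTCGgtgtagcc
The matches of Acadvl, Acot12, Acot8 and Fabp1 differ from the motif in 1 letter and those of the other 4 in 2. In Acot12, Fabp1 and Etfa the match lies on the opposite strand. The windows stand at chr10:55236706-55236746, minus strand, for Acadvl, chr2:24721830-24721890, plus strand, for Acot12, chr3:173962189-173962234, minus strand, for Acot8, and chr4:104749239-104749299, plus strand, for Fabp1. Those of Creb3l3, Crat, Etfa and Slc25a20 stand at chr7:9273102-9273162, plus strand, at chr3:34087286-34087346, minus strand, at chr8:64788083-64788143, minus strand, and at chr8:118243580-118243608, plus strand. The match began 17 bases before the start of Acadvl, 105 before that of Acot12, 22 before that of Acot8 and 77 before that of Fabp1. In Creb3l3 it began 194 bases before the start, in Crat 223, in Etfa 154, and in Slc25a20 16 bases after it. These are matches of letters, and binding was not measured.

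The median signal of the arrays was 108 to 134, and 1 control array stood apart from the rest. Control 3 had a median correlation of 0.951 with the other arrays, against 0.965 to 0.972 for each of the other 8. The beta-actin probe sets at the 3′ and 5′ ends of the transcript, whose ratio grows when RNA is broken down, gave ratios of 5.23 in CUMS 2, 4.96 in CUMS 4, 2.51 in control 3 and 3.18 to 3.73 in the other 6 rats. Of 10 hepatocyte markers, albumin and Apoa1 among them, 9 had a probe set of their own and all 9 passed the signal filter. The summed signal of these markers was 188109 to 222049 in CUMS 1–3, 225045 to 249221 in CUMS 4–6 and 188811 to 234556 in the controls. That of 14 stellate cell and fibroblast markers was 9525 to 12553 in CUMS 1–3, 12873 to 16324 in CUMS 4–6 and 15754 to 40474 in the controls, with the highest value in control 3. All 13 of these markers above the filter, collagens and Pdgfra among them, had a lower mean in CUMS 1–3 than in the controls, as did 12 of 13 in CUMS 4–6. Macrophage markers, of which 9 of 12 were measured, summed to 18743 to 27752 in CUMS 1–3, 19229 to 30046 in CUMS 4–6 and 25966 to 32244 in the controls. Bile duct markers, of which 3 of 6 passed the filter, all had a lower mean in both stressed groups, with median differences of −1.09 and −1.02. The summed signal of the 5 measured bile duct markers, those below the filter included, was 678 to 1151 in CUMS 1–3 and 895 to 1085 in CUMS 4–6. It was 1070, 978 and 9108 in control 1–3, where Spp1 alone gave 7739.7 in control 3. In whole liver, fewer cells of a type and less RNA per cell cannot be told apart, and the part of these markers in the results below was not tested.

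The fatty acid oxidation genes had, on balance, higher signals in the stressed livers, but none of them passed the test for single genes. In CUMS 1–3 against control, 39 of 45 members had a higher mean and 6 a lower one, and the median log2 difference was 0.19, against −0.02 over all 10403 genes, of which 46.5% had a higher mean. In CUMS 4–6 against control, 38 of 45 had a higher mean, with a median of 0.27, against −0.02 over all genes, of which 46% had a higher mean. These comparisons share the 3 control rats, so that they are not independent of each other.

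With limma and Benjamini-Hochberg adjustment over 18625 probe sets, CUMS 1–3 against control gave 0 calls at an adjusted p under 0.05 (0%), and 1259 probe sets (6.76%) had an unadjusted p under 0.05. The lowest adjusted p of a member was 0.408, that of Ehhadh. At an unadjusted p under 0.05, 15 of the 45 members were higher in CUMS 1–3 and 0 lower, where 7.81% of all genes reached it, 2.58% higher and 5.23% lower. The 3 rats of CUMS 1–3 all lay above the 3 controls in 14 members and all below in 0, against 4.81% and 7.45% of all genes. In CUMS 4–6 against control, 0 of 18625 probe sets were called (0%) and 1170 (6.28%) had an unadjusted p under 0.05, with 0.744 as the lowest adjusted p of a member. There 13 members were higher at an unadjusted p under 0.05 and 0 lower, against 3.18% and 4.19% of all genes, 7.37% in all. The rats of CUMS 4–6 lay above all controls in 17 members and below them in 0, against 6.08% and 7.22% of all genes. The plain equal-variance test with the same adjustment called 1 probe set in CUMS 1–3 and 0 in CUMS 4–6, none of them a member, and gave 12 and 7 members at an unadjusted p under 0.05. For this test the share of all genes at that p was not taken, and the shares above are those of limma. The p-values weigh a difference of group means against the spread between these rats, and the number of arrays limits the precision.

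Since control 3, CUMS 2 and CUMS 4 stood apart in the signals above, the counts were taken again without them. Without control 3, 34 of 45 members had a higher mean in CUMS 1–3 than in the other controls, 14 at an unadjusted p under 0.05, and the median was 0.15. In CUMS 4–6 the same step left 38 of 45 higher, 12 at an unadjusted p under 0.05, and a median of 0.21. Without CUMS 2 the count in CUMS 1–3 was 13, and without CUMS 4 that in CUMS 4–6 was 20. The count in CUMS 4–6 also turned on other rats, with 6 without CUMS 5, 7 without CUMS 6, 8 without control 2 and 23 without control 1. In CUMS 1–3, leaving out CUMS 3 gave 13 higher and 2 lower, Cd36 and Pdk4. With the 3 arrays left out together, a choice made after the values were seen, 13 members in CUMS 1–3 and 17 in CUMS 4–6 were higher at an unadjusted p under 0.05. The share of all genes at that p was not taken without these rats, so that these counts have no background beside them.

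**Figure D1:**
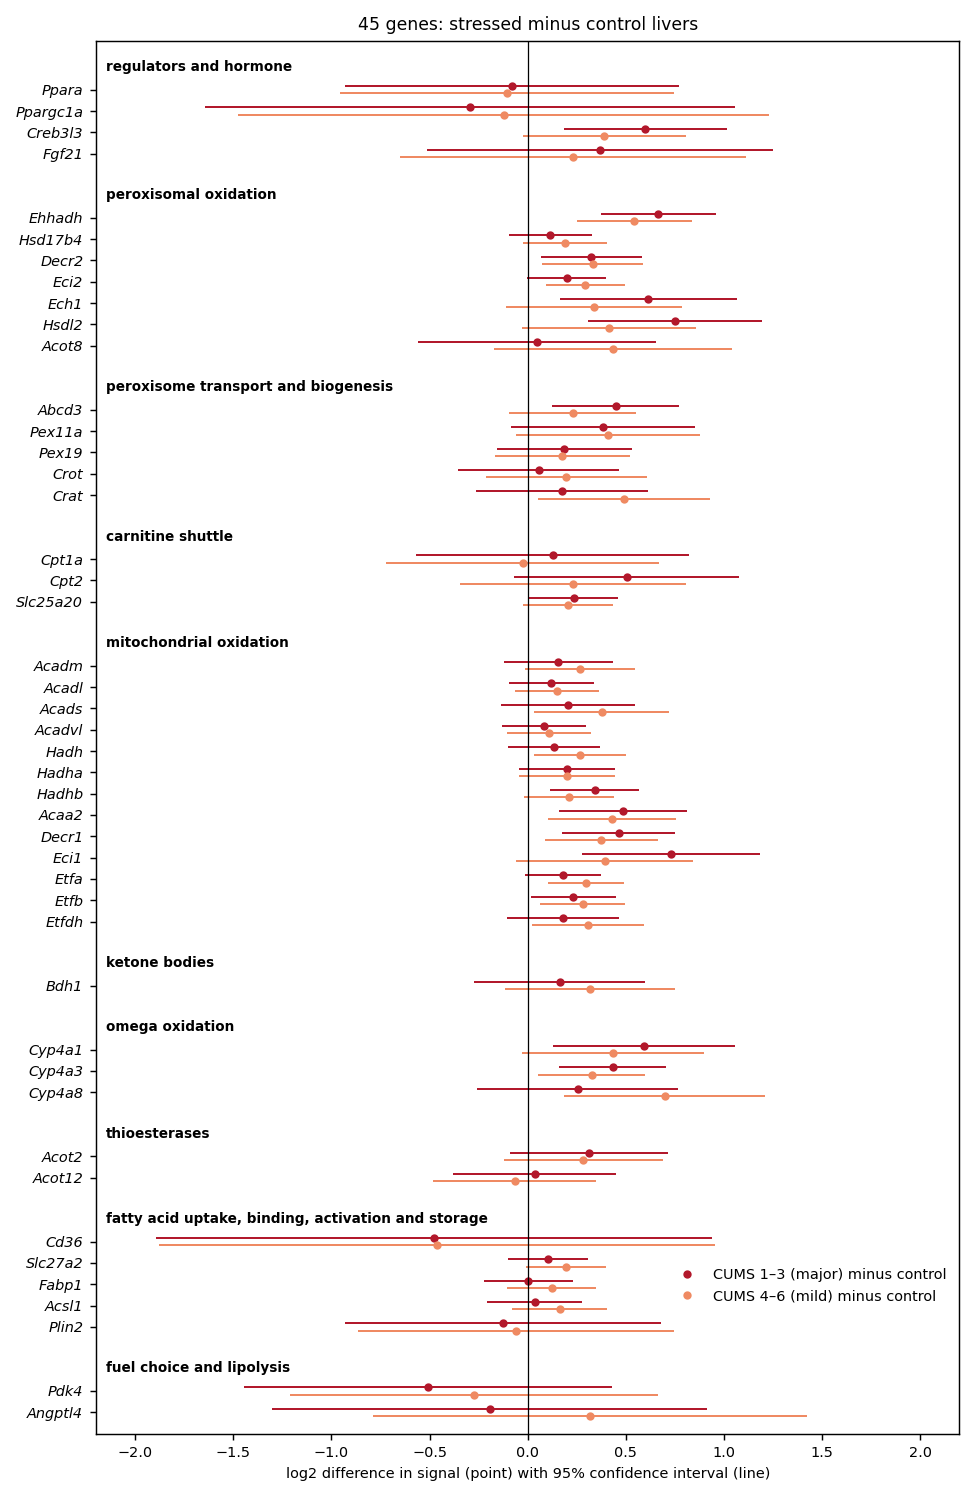
Log2 difference in signal from the 3 controls for the 45 members, grouped by role, in CUMS 1–3 (dark red) and CUMS 4–6 (orange), with lines for the 95% confidence interval from limma. Most points of the peroxisomal, mitochondrial and omega oxidation genes lie to the right of 0, by up to 0.75, while Ppara, Cd36, Plin2 and Pdk4 lie to the left with long intervals.

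Among the regulators, the transcript of the receptor itself did not stand apart between the groups. Ppara read 71.7, 66.7 and 142 in CUMS 1–3, 66.1, 106 and 91.8 in CUMS 4–6 and 71.7, 140.2 and 79.8 in control 1–3. CUMS 3 and control 2 were the highest rats, and the groups overlapped. The mean log2 signal of Ppara, 6.48, was close to the lower limit of the signal filter, 6.07. The log2 difference of Ppara was −0.08 (standard error 0.38, adjusted p = 0.983) in CUMS 1–3 and −0.10 (standard error 0.38, adjusted p = 0.981) in CUMS 4–6, with 95% intervals of −0.93 to 0.77 and −0.95 to 0.74. Ppargc1a, the coactivator PGC-1alpha, read 260.2, 330.1 and 355 in CUMS 1–3, 1038, 152 and 276 in CUMS 4–6 and 232, 771 and 315 in control 1–3. The highest signals were those of CUMS 4 and control 2, and the differences of −0.29 in CUMS 1–3 and −0.12 in CUMS 4–6 had standard errors of 0.61.

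Creb3l3 encodes CREB-H, a membrane-bound transcription factor of the liver that works with PPAR-alpha in mice. It read 5113, 6193 and 6209 in CUMS 1–3, 4019.6, 5058 and 6277 in CUMS 4–6 and 4753, 3079 and 3865 in control 1–3. Each of CUMS 1–3 was above the highest control, whereas CUMS 4 fell within the control range. The level in CUMS 1–3 was 1.51 times that of the controls, a log2 difference of 0.60 (standard error 0.19, adjusted p = 0.695). Fgf21, a fasting hormone made by the liver under PPAR-alpha, read 121, 155 and 367 in CUMS 1–3, 207, 219 and 113 in CUMS 4–6 and 159, 123 and 164 in control 1–3. CUMS 3 was the highest of the 9 rats, and the groups overlapped, with a difference of 0.37 (standard error 0.40, adjusted p = 0.902) in CUMS 1–3 and 0.23 in CUMS 4–6. In CUMS 1–3 Creb3l3 was the 1 regulator of 4 with an unadjusted p under 0.05, and in CUMS 4–6 there was none. Of all genes, 7.81% reached that p in CUMS 1–3 and 7.37% in CUMS 4–6.

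All 7 tested genes of peroxisomal oxidation had a higher mean in both stressed groups, with an unadjusted p under 0.05 in 5 of them in CUMS 1–3 and in 3 in CUMS 4–6. Over all genes the shares at that p were 7.81% and 7.37%. Ehhadh, the bifunctional enzyme that carries out the middle steps of peroxisomal oxidation and a classic target of PPAR-alpha in rodents, read 8306, 9989.6 and 9281 in CUMS 1–3, 7203, 8849.8 and 9369 in CUMS 4–6 and 6468, 5078 and 5867 in control 1–3. The lowest stressed rat, CUMS 4, was above the highest control, control 1. The means were 9192 ± 845 in CUMS 1–3, 8474 ± 1131 in CUMS 4–6 and 5804 ± 697 in control 1–3 (SD, n = 3 each). Its level was 1.59 times that of the controls in CUMS 1–3 and 1.46 times in CUMS 4–6, with log2 differences of 0.67 (standard error 0.13, adjusted p = 0.408) and 0.54 (standard error 0.13, adjusted p = 0.744). By unadjusted p it was the 11th of 10403 genes in CUMS 1–3 and the 30th in CUMS 4–6.

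Hsdl2, a short-chain dehydrogenase of peroxisomes, read 3546, 4876 and 4264 in CUMS 1–3, 2469, 3635 and 4103 in CUMS 4–6 and 2835, 2041 and 2682 in control 1–3. Its difference in CUMS 1–3, 0.75 (standard error 0.20, adjusted p = 0.599), was the largest of the 45 members, and no rat of CUMS 1–3 overlapped the controls, while CUMS 4 did. A second probe set of Hsdl2 gave 0.60 in CUMS 1–3 and 0.17 in CUMS 4–6. Ech1, an isomerase of dienoyl-CoA in peroxisomes and mitochondria, read 4344, 5889.7 and 5999 in CUMS 1–3, 3803, 4442 and 5113 in CUMS 4–6 and 4321, 2548 and 3888 in control 1–3. The lowest of CUMS 1–3 stood just above the highest control, and control 2 was the lowest rat. The Ech1 difference was 0.61 (standard error 0.20, adjusted p = 0.722) in CUMS 1–3 and 0.34 (standard error 0.20, adjusted p = 0.821) in CUMS 4–6.

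Smaller differences, without overlap with the controls, were seen in the reductase and isomerase that handle unsaturated chains. Decr2, the peroxisomal dienoyl-CoA reductase, read 3658, 4169.7 and 3906 in CUMS 1–3, 3434, 4129 and 4260.0 in CUMS 4–6 and 3426, 2963 and 2989 in control 1–3. Every stressed rat was above all 3 controls, though CUMS 4 was only just above control 1. The difference was 0.32 (standard error 0.11, adjusted p = 0.722) in CUMS 1–3 and 0.33 (standard error 0.11, adjusted p = 0.744) in CUMS 4–6. Eci2, the peroxisomal enoyl-CoA isomerase, read 5383, 5111 and 5604 in CUMS 1–3, 5806, 5744 and 5641 in CUMS 4–6 and 4968, 4679.7 and 4389 in control 1–3. The stressed rats were again all above the controls, at 1.15 times the control level in CUMS 1–3 (adjusted p = 0.737) and 1.23 times in CUMS 4–6 (adjusted p = 0.744). For Hsd17b4, the other bifunctional enzyme, and Acot8, a peroxisomal thioesterase, the differences were 0.11 and 0.05 in CUMS 1–3 and 0.19 and 0.43 in CUMS 4–6, with an unadjusted p above 0.05 in each.

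**Figure D2:**
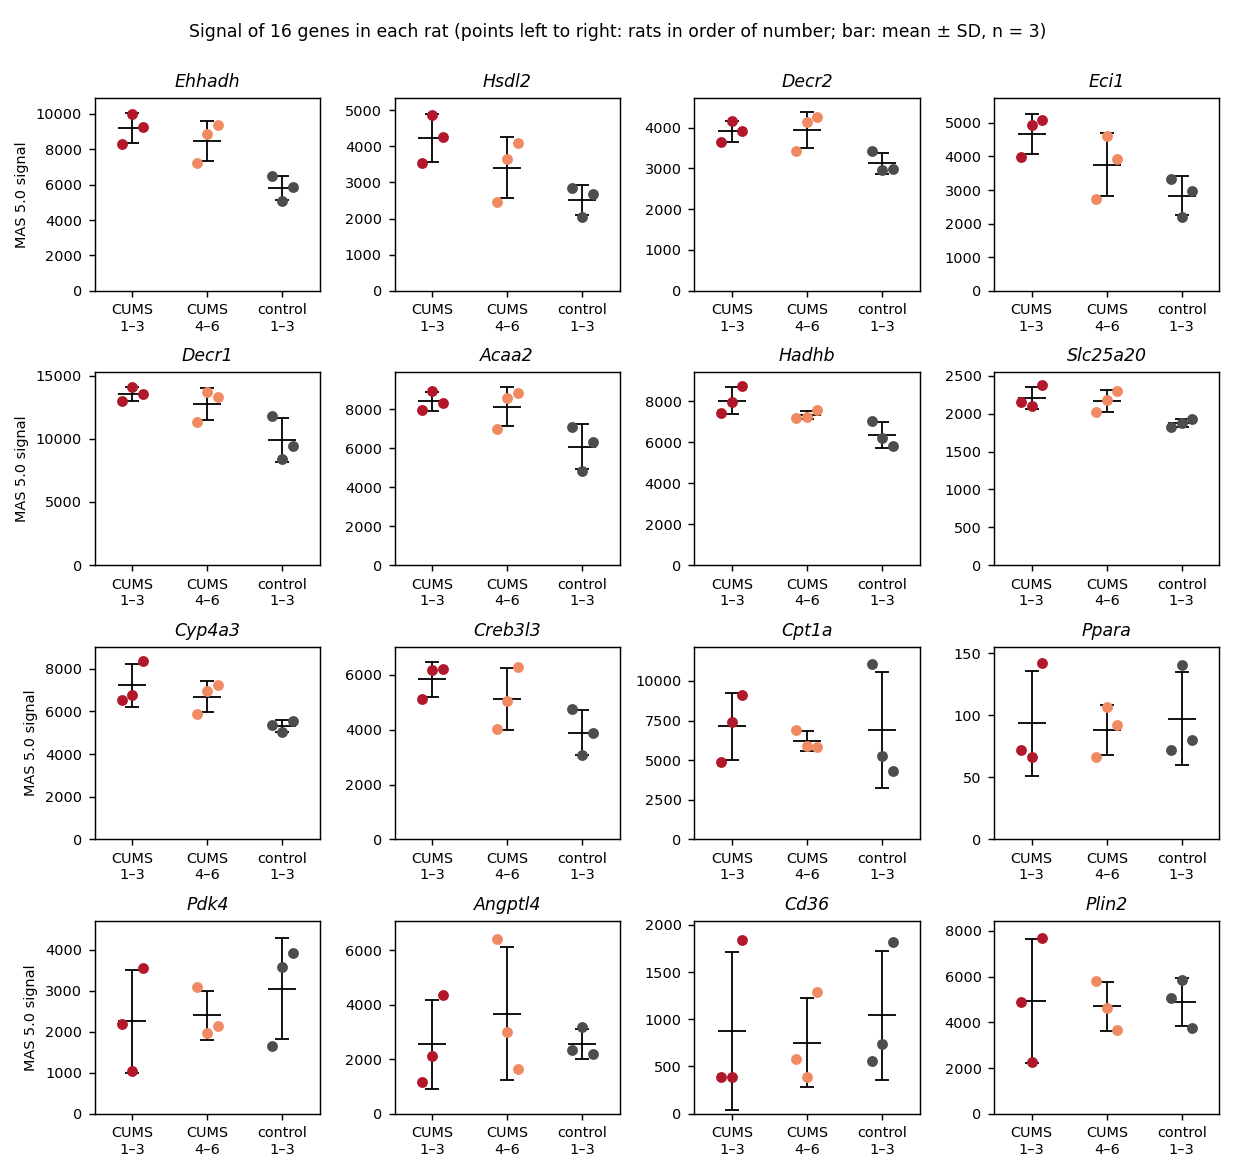
MAS 5.0 signal (linear axis from 0) of 16 members in each of the 9 rats, in order CUMS 1–3, CUMS 4–6 and control 1–3, with black bars for the mean and SD of 3 rats. In Ehhadh, Decr2, Hadhb, Slc25a20 and Cyp4a3 every stressed rat lies above every control, whereas Cpt1a, Ppara, Pdk4, Angptl4, Cd36 and Plin2 overlap widely.

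The genes for transport into peroxisomes and for their growth had a higher mean in 5 of 5 tested cases in both groups, with 1 unadjusted p under 0.05 in each. That p was reached by 7.81% of all genes in CUMS 1–3 and by 7.37% in CUMS 4–6. Abcd3, the abundant transporter PMP70 of the peroxisomal membrane, read 7287, 8528 and 6976 in CUMS 1–3, 6403, 7344 and 5844 in CUMS 4–6 and 6673, 5501 and 4643 in control 1–3. CUMS 1–3 lay above the controls and CUMS 4–6 overlapped them, with differences of 0.45 (standard error 0.14, adjusted p = 0.713) and 0.23 (standard error 0.14, adjusted p = 0.828). Crat, the carnitine acetyltransferase that exports acetyl groups, read 781, 544 and 866 in CUMS 1–3, 713, 984 and 1009 in CUMS 4–6 and 659, 572 and 677 in control 1–3. Here CUMS 4–6 lay above the controls, and CUMS 2 was the lowest of the 9 rats, with differences of 0.18 (standard error 0.20, adjusted p = 0.905) in CUMS 1–3 and 0.49 (standard error 0.20, adjusted p = 0.77) in CUMS 4–6. The other 3 tested members were Pex11a, which acts in peroxisome division, Pex19, the import receptor for membrane proteins, and Crot, the carnitine octanoyltransferase. Their differences ran from 0.06 (Crot) to 0.38 (Pex11a) in CUMS 1–3 and from 0.18 (Pex19) to 0.41 (Pex11a) in CUMS 4–6. A dimmer probe set of Pex11a gave 0.06 and −0.09. Abcd2, a transporter of very long chains, was below the signal filter, at 0.704 to 50.8 over the 9 rats.

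In the carnitine shuttle, which brings long chains into mitochondria, the entry enzyme and the carrier differed in pattern. Cpt1a, the regulated entry enzyme, read 4880.4, 7400.2 and 9099 in CUMS 1–3, 6933, 5907 and 5832 in CUMS 4–6 and 11088, 5247 and 4337 in control 1–3. Control 1 was the highest of all 9 rats and control 3 the lowest, so that the controls enclosed all stressed rats. The difference was 0.13 (standard error 0.31, adjusted p = 0.961) in CUMS 1–3 and −0.03 (standard error 0.31, adjusted p = 0.994) in CUMS 4–6. Slc25a20, the carnitine and acylcarnitine carrier of the inner membrane, read 2152, 2106 and 2378 in CUMS 1–3, 2024, 2178 and 2307 in CUMS 4–6 and 1823, 1881 and 1932 in control 1–3. All 6 stressed rats were above all controls, by differences of 0.23 (standard error 0.10, adjusted p = 0.737) and 0.21 (standard error 0.10, adjusted p = 0.782). Cpt2, the enzyme on the inner side, was higher by 0.50 in CUMS 1–3 and 0.23 in CUMS 4–6, with overlap and adjusted p of 0.759 and 0.916.

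All 13 genes of mitochondrial oxidation had a higher mean in both groups. An unadjusted p under 0.05 was reached by 5 in CUMS 1–3 and by 7 in CUMS 4–6, against 7.81% and 7.37% of all genes. Eci1, the mitochondrial enoyl-CoA isomerase, had the largest difference in CUMS 1–3 and read 3973, 4936 and 5081 in CUMS 1–3, 2741, 4601 and 3912 in CUMS 4–6 and 3332, 2209 and 2967 in control 1–3. CUMS 1–3 lay above the controls, by 0.73 (standard error 0.20, adjusted p = 0.637), and CUMS 4 lay within their range, with 0.39 (standard error 0.20, adjusted p = 0.788) for CUMS 4–6. Decr1, the mitochondrial dienoyl-CoA reductase, read 12964, 14111 and 13527 in CUMS 1–3, 11304, 13681 and 13326 in CUMS 4–6 and 11822, 8436 and 9466 in control 1–3. Control 1 lay above CUMS 4 and below the other 5 stressed rats, and the differences were 0.46 (standard error 0.13, adjusted p = 0.636) and 0.38 (standard error 0.13, adjusted p = 0.744).

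The thiolase and the trifunctional protein close each turn of the cycle. Acaa2, the mitochondrial thiolase, read 7949, 8941 and 8309.6 in CUMS 1–3, 6967, 8556 and 8819 in CUMS 4–6 and 7076, 4814 and 6335 in control 1–3. It was 1.40 times the control level in CUMS 1–3, with no overlap, and 1.35 times in CUMS 4–6, with CUMS 4 just below control 1 (adjusted p = 0.665 and 0.744). A second, dimmer probe set of Acaa2 did not share this, at 0.06 in CUMS 1–3 and −0.30 in CUMS 4–6. Hadhb, the thiolase subunit of the trifunctional protein, read 7428, 7941 and 8732 in CUMS 1–3, 7171, 7242 and 7568 in CUMS 4–6 and 7033, 6189 and 5828 in control 1–3. All 6 stressed rats were above the controls, by 0.34 (standard error 0.10, adjusted p = 0.665) and 0.21 (standard error 0.10, adjusted p = 0.782). Its partner Hadha was higher by 0.20 and 0.20, with overlap, and a much dimmer probe set of Hadha gave 0.16 in CUMS 1–3 and −0.30 in CUMS 4–6. Hadh, the dehydrogenase for shorter chains, read 15917, 15335 and 14034 in CUMS 1–3, 16515, 17386 and 15673 in CUMS 4–6 and 15267, 14041 and 12101 in control 1–3. CUMS 4–6 lay above the controls and CUMS 1–3 did not, with differences of 0.26 (adjusted p = 0.765) and 0.13 (adjusted p = 0.846).

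Electron transfer flavoprotein takes electrons from the acyl-CoA dehydrogenases to the respiratory chain, and the 3 genes of this step had differences of 0.18 to 0.31. Etfa, its alpha subunit, read 7827, 8105 and 7192 in CUMS 1–3, 8229.6, 8427 and 8433 in CUMS 4–6 and 6929.7, 6985 and 6503 in control 1–3. Each stressed rat exceeded the controls, at 1.13 times their level in CUMS 1–3 and 1.23 times in CUMS 4–6 (adjusted p = 0.749 and 0.744). Etfb, the beta subunit, read 9911, 10376 and 9097 in CUMS 1–3, 9747, 10318 and 10291 in CUMS 4–6 and 9109.9, 8322 and 7629 in control 1–3. CUMS 3 was just below control 1, and the differences were 0.23 (standard error 0.10, adjusted p = 0.733) and 0.28 (standard error 0.10, adjusted p = 0.744). Etfdh, the dehydrogenase that passes the electrons on, read 5097, 4216 and 5080.5 in CUMS 1–3, 5028, 5549.8 and 5093 in CUMS 4–6 and 4878, 4286 and 3602 in control 1–3. CUMS 4–6 lay above the controls, while CUMS 2 was the lowest stressed rat and lay below control 1 and control 2, with differences of 0.18 in CUMS 1–3 and 0.31 in CUMS 4–6.

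The acyl-CoA dehydrogenases begin each turn of the cycle. Acads, for short chains, read 2605, 2399 and 2128 in CUMS 1–3, 2521, 2668 and 2823 in CUMS 4–6 and 2485, 2158 and 1617 in control 1–3. CUMS 4–6 stood above the controls, control 3 was the lowest rat, and the differences were 0.21 (standard error 0.15, adjusted p = 0.838) and 0.38 (standard error 0.15, adjusted p = 0.77). For the medium-chain (Acadm), long-chain (Acadl) and very-long-chain (Acadvl) enzymes the differences were 0.16, 0.12 and 0.08 in CUMS 1–3 and 0.27, 0.15 and 0.11 in CUMS 4–6. In none of these 3 was the unadjusted p under 0.05. Acadm read 12529 to 14331 in the 6 stressed rats and 12822, 12943 and 9264 in control 1–3, so that control 3 stood below all other rats. Over the 13 mitochondrial genes, control 3 was the lowest control in 9 and control 2 in 4.

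Ketone bodies are made in liver mitochondria, and the listed gene of this step was Bdh1, the dehydrogenase that forms 3-hydroxybutyrate. It read 2912, 2149 and 2342 in CUMS 1–3, 2074, 3037 and 3205 in CUMS 4–6 and 2725, 2014 and 1902 in control 1–3. The groups overlapped, with differences of 0.16 (standard error 0.19, adjusted p = 0.913) and 0.32 (standard error 0.19, adjusted p = 0.826). A second probe set of Bdh1 gave 0.08 in CUMS 1–3 and 0.39 in CUMS 4–6, where the rats did not overlap the controls.

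The 3 CYP4A genes of omega oxidation had higher means in both groups, with an unadjusted p under 0.05 in 2 of 3 each time. Among all genes 7.81% reached that p in CUMS 1–3 and 7.37% in CUMS 4–6. Cyp4a1, the main fibrate-responsive fatty acid hydroxylase of rat liver, read 4569, 6063 and 7298 in CUMS 1–3, 4224, 5343 and 6490.1 in CUMS 4–6 and 3317, 3648 and 4888 in control 1–3. Control 3 was above CUMS 1 and CUMS 4, and the differences were 0.59 (standard error 0.21, adjusted p = 0.722) and 0.44 (standard error 0.21, adjusted p = 0.779). Cyp4a3 read 6544, 6755 and 8366 in CUMS 1–3, 5868, 6970.2 and 7251 in CUMS 4–6 and 5355, 5041 and 5572 in control 1–3. No control reached the lowest stressed rat, and the differences were 0.43 (standard error 0.12, adjusted p = 0.639) and 0.33 (standard error 0.12, adjusted p = 0.755). Cyp4a8 read 829, 1316 and 1193 in CUMS 1–3, 1522, 1465 and 1469 in CUMS 4–6 and 688, 848 and 1314 in control 1–3. CUMS 4–6 lay close together and above all other rats, while control 3 was near the top of CUMS 1–3, which gave 0.70 (standard error 0.23, adjusted p = 0.744) in CUMS 4–6 and 0.25 (standard error 0.23, adjusted p = 0.871) in CUMS 1–3. A second, dimmer probe set of Cyp4a8 gave 0.33 in CUMS 4–6 and 0.07 in CUMS 1–3, with overlap in both. The CYP4A genes resemble each other in sequence, and a probe set of this family may also read its neighbours. One that Cyp4a3 shares with Cyp4a2 gave 0.20 in CUMS 1–3 and 0.11 in CUMS 4–6, with overlap.

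Thioesterases release free fatty acids from CoA. Acot2, the mitochondrial one, was higher by 0.31 (standard error 0.18, adjusted p = 0.778) in CUMS 1–3 and 0.28 (standard error 0.18, adjusted p = 0.828) in CUMS 4–6, with overlap in both. A dimmer probe set of Acot2 gave 0.35 in CUMS 1–3, with overlap, and 0.55 in CUMS 4–6, where the rats did not overlap the controls. Another gave 0.36 and 0.29, with overlap in both. Acot12, the cytosolic acetyl-CoA hydrolase, differed by 0.04 and −0.07, with the highest (2273) and the lowest (1276) signal of the 9 rats both among the controls. The cytosolic Acot1 was below the signal filter, at 2.78 to 38.5 over the 9 rats.

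The genes that take up, bind, activate and store fatty acids had a higher mean in 3 of 5 cases in both groups, with 0 of 5 at an unadjusted p under 0.05. The shares of all genes at that p were 7.81% in CUMS 1–3 and 7.37% in CUMS 4–6, so that 0 of 5 is near them. Cd36, a fatty acid translocase of the cell surface, read 391, 390.1 and 1837 in CUMS 1–3, 584, 385 and 1284 in CUMS 4–6 and 560.4, 743 and 1817 in control 1–3. CUMS 3, CUMS 6 and control 3 read several times the lowest rats of their groups, and the differences of −0.48 and −0.46 had 95% intervals of −1.89 to 0.94 and −1.88 to 0.95. Plin2, the coat protein of lipid droplets, ran from 2274 in CUMS 2 to 7694 in CUMS 3, and its differences were −0.13 and −0.06. Slc27a2, a very-long-chain acyl-CoA synthetase, was higher by 0.10 in CUMS 1–3 and 0.20 in CUMS 4–6, and Acsl1, the main long-chain synthetase, by 0.03 and 0.16. In both genes CUMS 4–6 lay above all controls, with an unadjusted p above 0.05. For Acsl1 this was by a narrow margin, with 25018 in CUMS 5 and 25003 in control 2. A second bright probe set of Acsl1 gave 0.14 in CUMS 1–3 and 0.13 in CUMS 4–6, with overlap in both. Fabp1, the fatty acid binding protein of liver, differed by 0.00 (95% interval −0.22 to 0.22) and 0.12 (−0.10 to 0.34). Its signal, 33918 to 43088, was among the 3 highest of every array and so lay at the upper end of the scale.

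Pdk4 and Angptl4, which respond to fasting and to PPAR-alpha in rodents, varied widely from rat to rat. Pdk4, a kinase that shuts pyruvate dehydrogenase and so spares glucose, read 2177, 1042 and 3544 in CUMS 1–3, 3088, 1959.8 and 2145 in CUMS 4–6 and 1644, 3582 and 3913 in control 1–3. CUMS 2 was the lowest rat, control 3 the highest, and the difference was −0.51 (standard error 0.42, adjusted p = 0.857) in CUMS 1–3 and −0.28 (standard error 0.42, adjusted p = 0.941) in CUMS 4–6. Angptl4, a secreted inhibitor of lipoprotein lipase, read 1169.6, 2129 and 4355 in CUMS 1–3, 6412, 2990.0 and 1639 in CUMS 4–6 and 2323, 3202 and 2185 in control 1–3. The signal of CUMS 4 was several times that of CUMS 1, the groups overlapped, and the differences were −0.19 (standard error 0.50, adjusted p = 0.963) and 0.32 (standard error 0.50, adjusted p = 0.943). Over all 9 rats the highest signal of Pdk4 was 3.75 times the lowest and that of Angptl4 5.48 times, against 1.20 times for Acadvl and 1.30 times for Etfa.

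**Figure D3:**
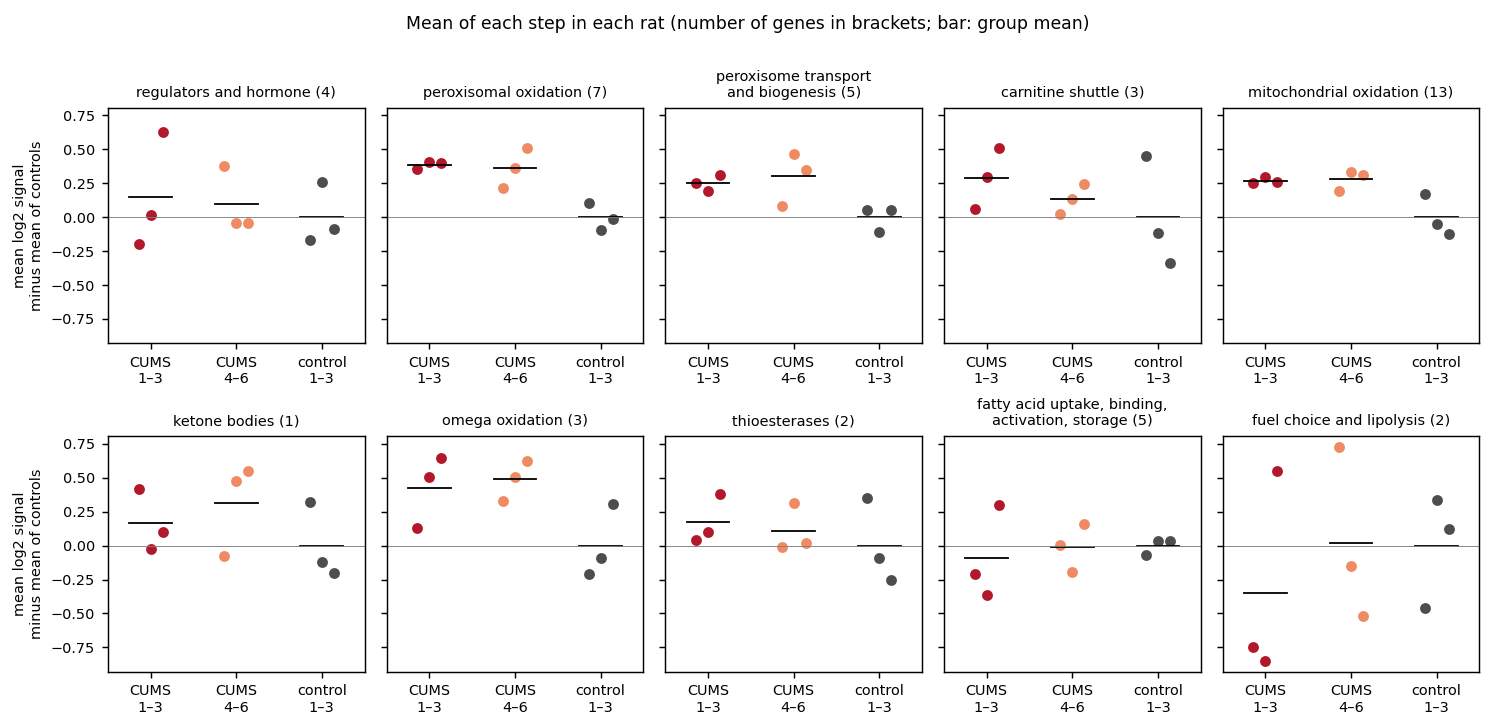
Mean log2 signal of the tested genes of each step in each rat, minus the mean of the 3 controls (number of genes in brackets; horizontal bars are group means). For peroxisomal and mitochondrial oxidation every stressed rat lies above every control, from 0.20 upwards in mitochondrial oxidation against at most 0.17, whereas the regulators, the carnitine shuttle and the fuel choice genes overlap.

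The mean over the genes of a step was next taken in each rat, as a description without a test. For peroxisomal oxidation, over 7 genes, it was 0.36, 0.41 and 0.40 in CUMS 1–3, 0.22, 0.37 and 0.51 in CUMS 4–6 and 0.11, −0.09 and −0.02 in control 1–3, on the log2 scale relative to the mean of the controls. For mitochondrial oxidation, over 13 genes, it was 0.25, 0.30 and 0.26 in CUMS 1–3, 0.20, 0.34 and 0.31 in CUMS 4–6 and 0.17, −0.05 and −0.12 in control 1–3. In both steps the 6 stressed rats stood above the 3 controls, and CUMS 4 was the lowest of them. For the carnitine shuttle the means were 0.06, 0.30 and 0.51 in CUMS 1–3, 0.03, 0.14 and 0.25 in CUMS 4–6 and 0.45, −0.11 and −0.34 in control 1–3. Here control 1 exceeded 5 of the 6 stressed rats.

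Between the stressed groups, CUMS 1–3 against CUMS 4–6, 20 of 45 members had a higher mean in CUMS 1–3 and 25 a lower one, and the median difference was −0.02. By limma 0 of 18625 probe sets were called (0%), and 530 (2.85%) had an unadjusted p under 0.05. Of the members 0 reached that, by limma and by the plain equal-variance test, against 2.4% of all genes by limma, 1.1% higher and 1.31% lower. CUMS 1–3 lay below CUMS 4–6 without overlap in 4 members, Eci2, Acadm, Etfa and Cyp4a8, and above in 0, against 4.99% and 4.4% of all genes. The smallest p was that of Cyp4a8, with a difference of −0.44 (standard error 0.23, adjusted p = 0.9996) and a 95% interval of −0.95 to 0.06. For Ehhadh the difference was 0.12 with an interval of −0.16 to 0.41, for Hsdl2 0.33 with −0.11 to 0.77, and for Eci1 0.34 with −0.11 to 0.79. Each of these intervals includes 0. Of the 21 members with an unadjusted p under 0.05 against control in either group, 7 had it in both, namely Ehhadh, Decr2, Eci2, Acaa2, Decr1, Etfb and Cyp4a3.

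With all 6 stressed rats set against the controls, 39 of 45 members had a higher mean, and the median was 0.24, against −0.02 over all genes. By limma 0 of 18625 probe sets were called (0%), as with the plain equal-variance test, and 1477 (7.93%) had an unadjusted p under 0.05 by limma. The lowest adjusted p of a member was 0.3, for Ehhadh at 1.52 times the control level. At an unadjusted p under 0.05, 18 members were higher and 0 lower, against 3.37% and 6.24% of all genes, 9.61% in all. In 7 members, Ehhadh, Cyp4a3, Decr2, Etfa, Eci2, Hadhb and Slc25a20, all 6 stressed rats were above all 3 controls, which held for 1.65% of all genes. None had all 6 below, against 2.74% of all genes.

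The methods of the study took genes with p under 0.05 whose ratio of levels was 1.5 or more, or 0.5 or less. With the plain equal-variance test on log2 signals and no signal filter, 4 of 47 members passed as higher in CUMS 1–3, Creb3l3, Ehhadh, Hsdl2 and Eci1, and 0 as lower, where 0.802% of 14217 genes passed as higher. In CUMS 4–6 0 members passed, against 0.964% of genes as higher. Over all 6 stressed rats 1 passed, Ehhadh, against 1.15% of genes. Between CUMS 1–3 and CUMS 4–6 it was Acot1, which is below the signal filter, against 0.83% of genes.

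**Figure D4:**
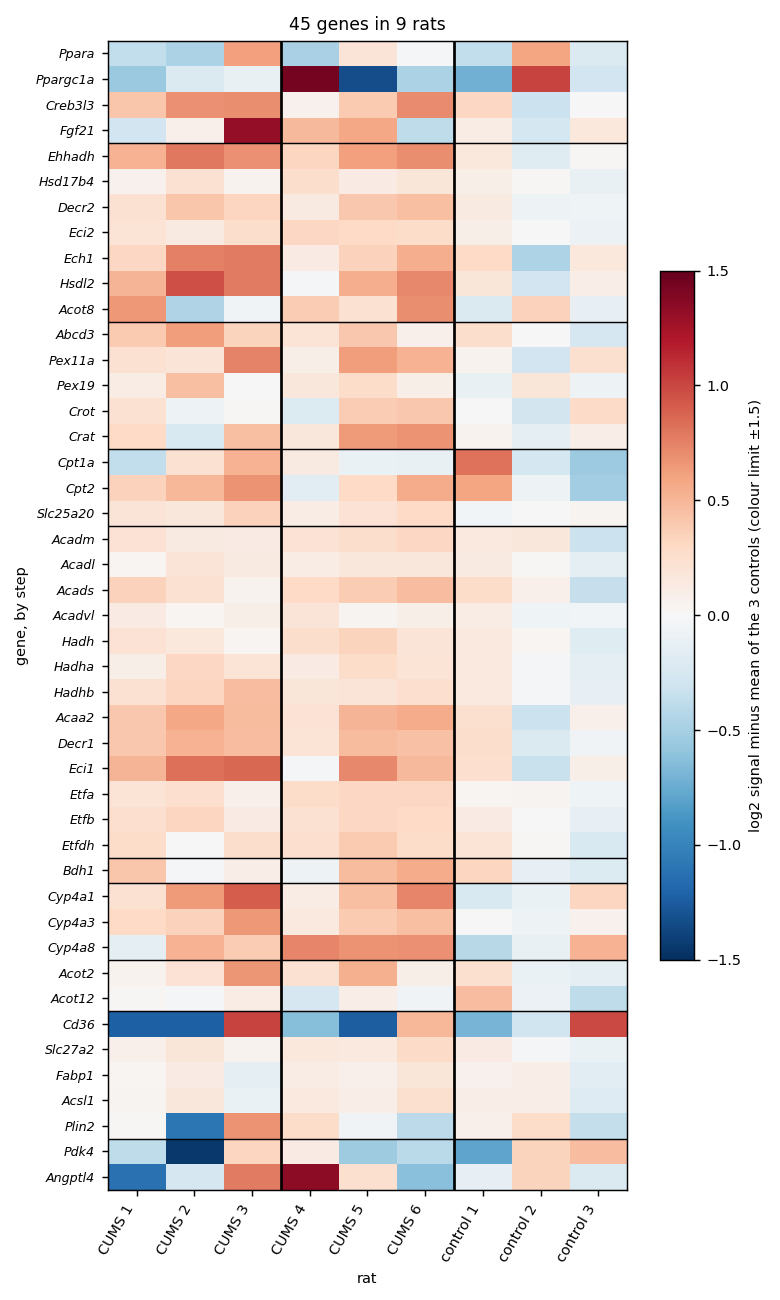
Log2 signal of the 45 members (down, by role) in the 9 rats (across), minus the mean of the 3 controls, with colours limited to 1.5 in either direction. The stressed rats are mostly red in the peroxisomal, mitochondrial and omega oxidation genes, while Cd36, Pdk4 and Angptl4 change colour from rat to rat within every group. Ppargc1a does so within CUMS 4–6 and the controls, and lies below the control mean in all of CUMS 1–3.

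Among single rats, control 3 had the lowest of the 9 signals in 20 of 45 members and control 2 in 12. The highest signal was that of CUMS 3 in 13 members, CUMS 6 in 12 and CUMS 2 in 9. In Ehhadh, Ech1, Hsdl2, Acaa2, Decr1 and Eci1 it was control 2 that read lowest. CUMS 4, with a raised beta-actin ratio of 4.96, was the lowest stressed rat in 4 of 7 peroxisomal and 4 of 13 mitochondrial genes. CUMS 2, with 5.23, was the lowest in 2 and 2, and CUMS 3, with 3.55, in 1 and 5, and the part of that ratio in these values was not tested.

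Other enzymes of fatty acid oxidation were listed apart from the members. Of these 28 genes 23 were measured, and 16 had a higher mean in CUMS 1–3, 4 with an unadjusted p under 0.05 and 0 lower, where 2.58% of all genes were higher and 5.23% lower. In CUMS 4–6, 17 had a higher mean, 2 with an unadjusted p under 0.05 and 0 lower, a count near that of all genes, 7.37% in both directions. Hacl1, the lyase of peroxisomal alpha-oxidation, read 5864, 5869.7 and 5931 in CUMS 1–3, 5994, 5129.9 and 7731 in CUMS 4–6 and 5218, 3206 and 2592 in control 1–3, a difference of 0.75 (standard error 0.22, adjusted p = 0.668) in CUMS 1–3 with no overlap and 0.82 (standard error 0.22, adjusted p = 0.744) in CUMS 4–6, where CUMS 5 was below control 1. Acad10 and Acad11, relatives of the acyl-CoA dehydrogenases, were higher without overlap in CUMS 1–3 by 0.41 and 0.32 (adjusted p = 0.733 and 0.722). Acad9 was higher without overlap in CUMS 4–6 by 0.30 (adjusted p = 0.77).

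Of 22 other genes of fatty acid handling and PPAR targets, 20 passed the filter, 12 with a higher mean in each group. At an unadjusted p under 0.05, 4 were higher and 0 lower in CUMS 1–3, where 2.58% of all genes were higher and 5.23% lower. In CUMS 4–6, 4 were higher and 2 lower, where 3.18% of all genes were higher and 4.19% lower. Vnn1, the pantetheinase vanin-1 and a target of PPAR-alpha in mouse liver, read 1088, 1626 and 1243 in CUMS 1–3, 995, 1735 and 1334 in CUMS 4–6 and 880.4, 501 and 595 in control 1–3. All 6 stressed rats were above all controls, at 2.03 times the control level in CUMS 1–3 (adjusted p = 0.562) and 2.06 times in CUMS 4–6 (adjusted p = 0.744). Slc27a5, the bile acyl-CoA synthetase, was higher by 0.27 and 0.42 and Acsl4, a synthetase that prefers arachidonate, by 0.29 and 0.30, in both without overlap. Lower without overlap in CUMS 4–6 were Abhd5, the activator of the lipase ATGL, by −0.30 (adjusted p = 0.765) and Fabp2, the intestinal binding protein, by −0.69 (adjusted p = 0.744). Fabp2 was also higher in CUMS 1–3 than in CUMS 4–6, by 0.63 (standard error 0.25, adjusted p = 0.9996). Among 14 receptors and cofactors above the filter, RXR genes and Hnf4a included, 0 had an unadjusted p under 0.05 in either group. Of all genes, 7.81% reached that p in CUMS 1–3 and 7.37% in CUMS 4–6, so that 0 of 14 is near these shares.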

How the data were processed

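Arrays from the livers of 9 GK rats, 3 each of CUMS 1–3, CUMS 4–6 and control, were taken, grouped by the symptom in the labels. The authors extracted RNA with TRIzol, labelled it with a 3′ IVT kit and normalized the scans with MAS 5.0, and the deposited values are signal intensities on a linear scale. The trimmed mean was 500.2 on each array. Detection calls and scan details were not used here. Genes were named through the platform annotation, which gave 1 symbol to 20826 probe sets, several to 436 and none to 9780.

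Control probe sets (57) were left out, 586 values below 1 were set to 1, and log2 was taken. Of the other 31042 probe sets the dimmest 40% over the 9 arrays were dropped, and 18625 with a mean log2 signal of at least 6.07 stayed. The 3 groups were fitted together with limma 3.58.1 in R 4.3.3, with variances moderated along the signal and 6 residual degrees of freedom, and p was adjusted by Benjamini-Hochberg over all probe sets kept. The plain equal-variance test stands for the test named in the study's methods. The scripts were tested on simulated data. Alternatives were other normalizations, filters, fits and probe sets, and leaving out each rat in turn.

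The members, lists, tests and thresholds were chosen with earlier results of these data known. Values per rat are given for Ppara, Ppargc1a, Creb3l3, Fgf21, Ehhadh, Cpt1a, Bdh1, Cyp4a1, Cd36, Pdk4 and Angptl4, and for each member with an unadjusted p under 0.05 in a comparison between groups. Other listed genes are named where the unadjusted p is under 0.05 and the groups do not overlap, with Vnn1 always named, and some listed genes are not reported here. Rats with the same number in CUMS 1–3 and control had correlations of 0.003, −0.049 and 0.14 after removal of the group means, so the numbers were not taken to pair them.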

Additional observations from a re-analysis of the deposited data

Results flagged for a closer look

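Etfdh read 4216 in CUMS 2, apart from the 5028 to 5550 of the other 5 stressed rats. On log2 signals the gap to the nearest of them was 0.641 of the range of the 6 rats, above Dixon's limit for 6 values, and on the linear signals it was 0.609, below that limit. It was the 1 member of 45 with such a rat, where chance gives about 1 in 20 groups. CUMS 2 also had the highest beta-actin 3′ to 5′ ratio, 5.23, and the part of this ratio in the value was not tested.

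The probe set that Acaa1b shares with Acaa1a, the peroxisomal thiolases, lies outside the comparisons above because it carries 2 symbols. It read 6935, 6384 and 6877 in CUMS 1–3, 7348, 7197 and 6904 in CUMS 4–6 and 6188, 6333 and 5306 in control 1–3. All 6 stressed rats were above the controls, by 0.227 on the log2 scale (adjusted p = 0.574 from limma). Which of the genes it reads was not tested.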

How the results depend on the processing

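No member was called at an adjusted p under 0.05 under any alternative run, and the medians over the members kept within the spread between rats. The count of members at an unadjusted p under 0.05 in CUMS 4–6 against control, 13 as reported, was 7 with the plain equal-variance test and 6 (without CUMS 5) to 23 (without control 1) when single rats were left out, with 20 without CUMS 4, 7 without CUMS 6 and 8 without control 2. In CUMS 1–3 against control, 15 as reported and all higher, the range was 11 to 17, with 13 higher and 2 lower (Cd36 and Pdk4) without CUMS 3. Over all stressed rats, 18 as reported, it was 11 (without control 2) to 24 (without control 1). Between the stressed groups, 0 as reported, the count was 1 without a signal filter, with only the groups compared and with array weights, 0 to 1 when single rats were left out, and 2 without CUMS 2, CUMS 4 and control 3, a setting chosen after the values were seen. The replicate number as a block gave 14 members at an unadjusted p under 0.05 in CUMS 1–3 against control, 13 higher and 1 lower (Cd36), and 0 adjusted calls, and it changed no other call. For the counts under the alternatives, the share over all genes was not taken.

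Of the values of single genes, 31 changed sign and 927 did not, and the cause was not tested. Leaving out single rats in CUMS 1–3 gave −0.43 to 0.22 for Ppara, −0.66 to 0.21 for Ppargc1a, −0.11 to 0.70 for Fgf21, −0.14 to 0.53 for Cpt1a, −1.22 to 0.020 for Cd36 and −0.68 to 0.27 for Angptl4. In CUMS 4–6 it gave −0.29 to 0.19 for Ppara, −0.90 to 0.48 for Ppargc1a, −0.30 to 0.38 for Cpt1a, −0.94 to 0.035 for Cd36 and −0.19 to 0.79 for Angptl4. Array weights gave −0.10 for Cpt1a in CUMS 1–3, and centring on the median 0.031 in CUMS 4–6. Of 16 further probe sets of 14 members, 2 turned the sign in CUMS 1–3 (Crot, Ppargc1a) and 4 in CUMS 4–6 (Acaa2, Hadha, Pex11a, Ppargc1a). They gave 0.04 for Ppargc1a in CUMS 1–3, and 0.12 for it and −0.30 for Acaa2 in CUMS 4–6. Without the 3 arrays with odd beta-actin ratios, CUMS 1–3 gave 0.0096 for Ppara, −0.19 for Cpt1a, 0.39 for Cd36 and 0.19 for Pdk4, and CUMS 4–6 gave 0.12 for Cd36 and −0.30 for Angptl4. Of the members, Cd36, Ppargc1a, Angptl4 and Pdk4 had the largest standard errors, 0.64, 0.61, 0.50 and 0.42. That of Ppara was 0.38, and its median signal over the rats, 79.8, lay below the median signals of the arrays, 108 to 134.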

Other observations

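Further probe sets that members share with another gene were measured apart. The one of Eci3 and Eci2 gave a log2 difference of −0.13 in CUMS 1–3 and 0.00 in CUMS 4–6, while the probe set of Eci2 alone gave 0.20 and 0.29. That of Acot2 and Acot1 gave 0.45 and 0.15, with overlap in both, and that of Cd36l1 and Cd36 gave −0.35 and −0.20. Pex19 shares probe sets with LOC102548286, of which the brighter gave −0.04 in CUMS 1–3 and −0.07 in CUMS 4–6. The dimmer gave 0.13 and −0.02, while the probe set of Pex19 alone gave 0.19 and 0.18.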
